A study of Mus musculus with 36 samples.

Results

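The tricarboxylic acid (TCA) cycle is described here through 9 genes, Cs, Idh2, Idh3a, Ogdh, Dlst, Sucla2, Fh1, Mdh1 and Mdh2. They were chosen by gene symbol, and each symbol was matched to its Ensembl gene in all 6 count tables of the series, so all 9 members were found among the 51912 to 55487 genes that a table lists. All 9 passed the filter on low counts in each of the 7 comparisons below. The name of the set fits 7 of the members closely. The exceptions are Mdh1, which encodes the malate dehydrogenase of the cytosol, and Idh2, which encodes a mitochondrial isocitrate dehydrogenase that uses NADP rather than the NAD used in the cycle itself.

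The cycle runs in the mitochondrial matrix, where acetyl groups from pyruvate and fatty acids are joined to oxaloacetate as citrate and then oxidised step by step, which yields the NADH and FADH2 that feed the respiratory chain. It also supplies citrate for fatty acid synthesis and malate for gluconeogenesis, so liver, fat and muscle use the same enzymes for different ends. Male germ cells are known for replacing several widely expressed metabolic enzymes with copies that are made in the testis alone.

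The study asked how a short paternal diet affects germ cells, embryos and offspring. Male C57BL/6 wildtype mice (C57BL/6N in the study's methods) were put at 6 weeks of age for 2 weeks on a high-fat diet (HFD, 60 kcal% fat) or a low-fat diet (LFD, 10 kcal% fat). Cauda spermatozoa, the motile sperm of the last part of the epididymis, came from 3 HFD and 3 LFD samples, and round spermatids, the haploid germ cells that precede sperm, from 6 samples on either diet. Morulae were 3 samples sired by HFD males and 3 by LFD males, made by in vitro fertilisation of oocytes of untreated females and cultured for 72 h. Liver, epididymal white adipose tissue (eWAT) and gastrocnemius, a calf muscle, were 6 samples each from adult offspring of HFD males; the offspring themselves ate chow. The 6 columns of the round spermatid table cannot be tied to a diet, nor those of the 3 offspring tissues to the offspring's glucose tolerance class, so each of these tables was taken as 1 group. Sperm, round spermatid and morula libraries were made with a kit that covers whole transcripts, and offspring tissue libraries with a kit that reads transcript 3′ ends, so no level was tested across this divide. All values start from the deposited counts of reads per gene and are given as CPM, counts scaled to 1000000 counts per library. In samples from many cells, fewer cells of a type and less RNA per cell cannot be told apart.

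Totals ran from 20138842 to 31056066 counts in round spermatids, 11471251 to 12153141 in morula, 2560219 to 4062321 in sperm and 369772 to 4055537 in the offspring tissues. With a limit of 3 counts, a gene without counts could still be at 0.0966 to 0.149 CPM in round spermatids, 0.247 to 0.262 CPM in morula and 0.738 to 8.11 CPM in the other tables, for counting error only. All 4 defining markers of the labelled cells had counts in every library of each table. Round spermatid libraries carried 784 to 930 CPM of their 4 markers and 209 to 257 CPM of 4 meiotic markers. The latter were Sycp1 (119 to 154 CPM), Spo11 (58.7 to 63.0 CPM), Sycp3 (26.7 to 35.7 CPM) and Dmc1 (3.82 to 6.46 CPM). The part of meiotic cells in the round spermatid values was not tested. Sperm libraries carried 1629 to 2879 CPM of 4 epididymal epithelium markers on HFD and 3013 to 24985 CPM on LFD, nearly all of it from Crisp1 (1585 to 2604 and 2474 to 23483 CPM) and Adam7 (42.9 to 275 and 539 to 1494 CPM), with Lcn5 and Rnase10 at most at 1.95 and 5.47 CPM. The 4 leukocyte markers summed to 276 to 817 CPM on HFD and 1569 to 3952 CPM on LFD, a gap carried by Cd52 (234 to 748 and 1511 to 3865 CPM), which epididymal epithelium also makes. Over the 3 libraries of a diet, the counts of the other leukocyte markers were 97 on HFD and 95 on LFD for Ptprc, 158 and 159 for Lyz2, and 336 and 362 for Cd74. The mtDNA-encoded genes took 78.1% to 84.3% of all counts in HFD sperm and 43.5% to 64.7% in LFD sperm, without overlap. Their share was at most 2.38% in round spermatids. The eWAT library of 3512177 counts stood apart with 331 CPM of 4 Sertoli and Leydig cell markers, against 13.8 to 22.9 CPM in the other five, of which Sox9 alone was 322 CPM; Insl3 had 0 counts in eWAT and Star and Cyp17a1 were at most at 11.5 and 1.33 CPM. The same library had 62.6 CPM of 4 late germ cell markers, against 0 to 2.29 CPM in the other five, and 11.4 CPM of epididymal markers, against 0 to 8.97 CPM. The eWAT libraries also carried 37.6 to 884 CPM of 4 skeletal muscle markers, against 26776 to 63679 CPM in gastrocnemius. They held 80.0 to 721 CPM of 4 hepatocyte markers, against 39364 to 59898 CPM in liver, and 4124 to 14032 CPM of 4 erythroid markers. The part of such cells in the eWAT values was not tested. The gastrocnemius library of 369772 counts was the shallowest of all, and there a single count is 2.70 CPM.

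**Figure D1:**
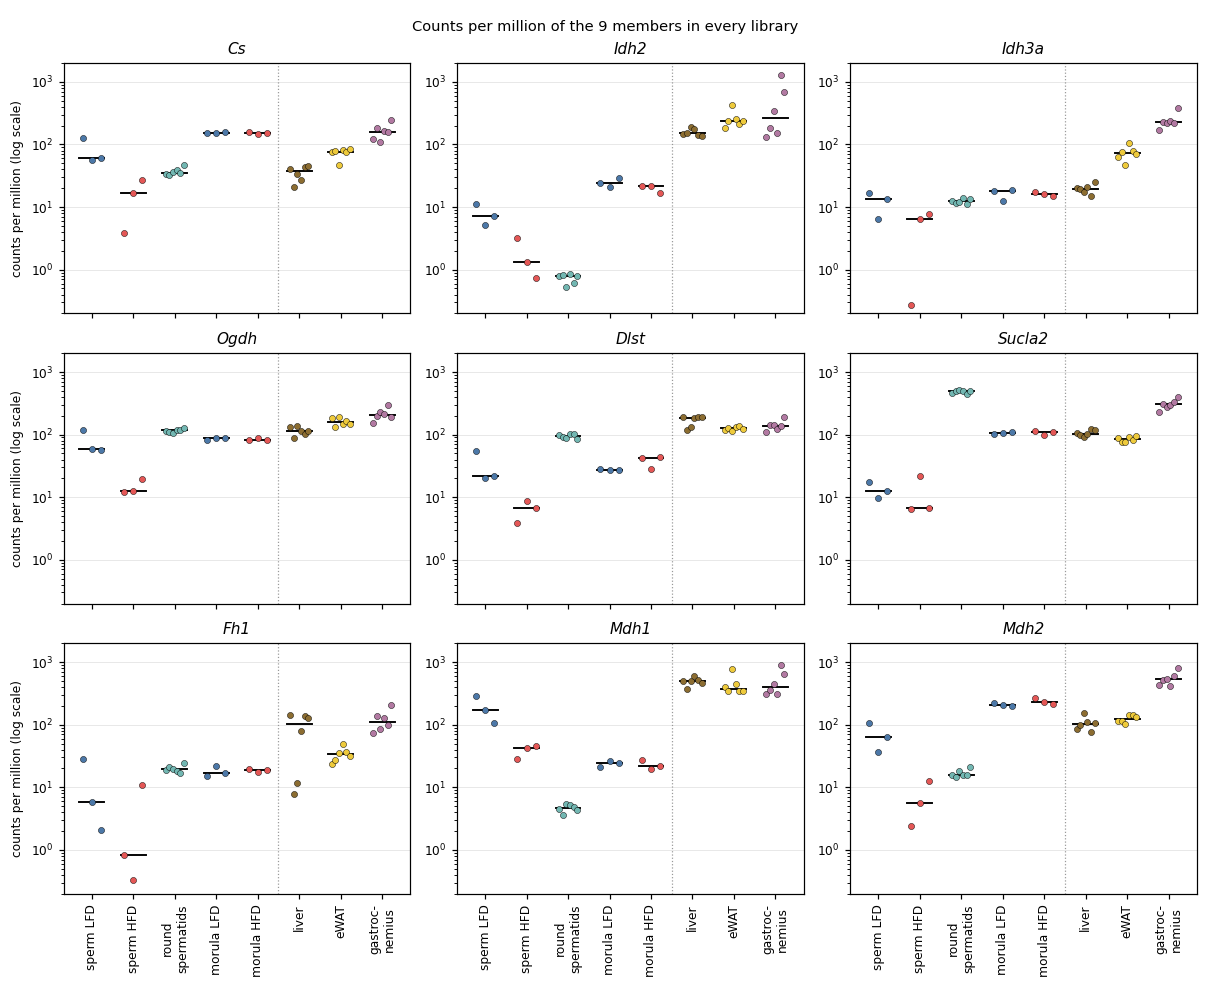
CPM (log scale) of the 9 members in all 36 libraries; each point is a library, the bar is the median of its group, and the dotted line parts the whole-transcript libraries from the 3′-end libraries. Sucla2 reached 440 to 512 CPM in round spermatids, where Idh2 lay between 0.519 and 0.849 CPM, and the 6 gastrocnemius libraries of Mdh2 and Idh3a lay above all liver and eWAT libraries.

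Round spermatids and morulae used the set in different proportions. Sucla2, which encodes the ATP-forming subunit of succinyl-CoA ligase, was the most abundant member per length in round spermatids at 121 ± 6.35 CPM per kilobase of exon (SD, n = 6). In morula the most abundant was Mdh2, the mitochondrial malate dehydrogenase, at 62.7 ± 6.70 CPM per kilobase (n = 6). The least abundant in round spermatids was Idh2, with 0.283 ± 0.0522 CPM per kilobase, which was at 8.68 ± 1.62 in morula. In morula Idh3a (3.22 ± 0.442) and Dlst (3.45 ± 0.836) were lowest and did not differ beyond their spread.

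In the comparison of round spermatids with morula, 3 of the 9 members were called higher and 5 lower at an adjusted p under 0.05 (edgeR quasi-likelihood test). Of all genes tested, 58.9% were called higher and 33.7% lower. The median log2 fold change, on TMM-scaled values, was −0.70 over the members and 1.43 over all genes. Cells, preparation and table go together here and cannot be told apart.

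Cs (chr10:128337734-128362479, plus strand, GRCm38) encodes citrate synthase, the enzyme that opens the cycle. It ranged from 32.0 to 47.3 CPM in round spermatids (median 35.3) and from 149.5 to 161 CPM in morula (median 154), with no overlap. The fitted log2 fold change was −2.37 ± 0.07 (SE), with an edgeR adjusted p of 4.7e-15. Its intronless copy Csl (chr10:99757706-99759658, minus strand) went the opposite way, with 223 to 239 CPM in round spermatids and 0.165 to 0.494 CPM in morula. Csl thus took 35068 counts over the 6 round spermatid libraries where Cs took 5509.

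The coding sequences of Cs and Csl were compared to see how far a read can tell them apart. Over 1392 aligned coding bases without a gap, the sequences were 92.7% identical, and only 23 of 1318 windows of 75 bases, the read length of these libraries, were the same in both. A typical window held 5 differences. Shown are a window of Cs inside exon 10 of 11 (chr10:128360011-128360085, plus strand, GRCm38) and the matching window in the single exon of Csl (chr10:99758040-99758114, minus strand), since such differences are what assigns a read to either gene. Capitals mark the 4 bases at which they differ.
Cs: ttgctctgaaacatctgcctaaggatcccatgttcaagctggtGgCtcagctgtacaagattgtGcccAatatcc
Csl: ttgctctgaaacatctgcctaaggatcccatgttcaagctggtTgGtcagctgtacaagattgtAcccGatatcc

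The isocitrate dehydrogenase genes were lower by unequal amounts. Idh3a (chr9:54586334-54604661, plus strand), the catalytic subunit of the NAD-dependent enzyme, was at 11.1 to 13.8 CPM in round spermatids (median 12.3) and 12.6 to 18.7 CPM in morula (median 16.8). On the unscaled CPM the groups overlapped, while on TMM-scaled values they did not; the log2 fold change was −0.70 ± 0.10 (adjusted p = 7.61e-06, edgeR). Idh2 (chr7:80094846-80115392, minus strand) was at 0.519 to 0.849 CPM in round spermatids (median 0.790) and 16.97 to 29.6 CPM in morula (median 21.6), a log2 fold change of −5.23 ± 0.17 (adjusted p = 1.69e-14, edgeR). The round spermatid value rests on 11 to 22 counts a library, far above the 3 counts that a count of 0 allows.

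The next step, the 2-oxoglutarate dehydrogenase complex, had 2 members, both called higher. Dlst (chr12:85110833-85134845, plus strand), its succinyltransferase, was at 86.5 to 103 CPM in round spermatids (median 95.5) and 27.03 to 43.5 CPM in morula (median 28.6). Its log2 fold change was 1.23 ± 0.12 (adjusted p = 3.2e-08, edgeR). Ogdh (chr11:6291633-6356642, plus strand), its first enzyme, differed little: its groups overlapped on TMM-scaled values, and its log2 fold change of 0.14 ± 0.06 met the threshold by a narrow margin (adjusted p = 0.04997, edgeR).

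Sucla2 (chr14:73525319-73596142, plus strand) was at 440 to 512 CPM in round spermatids (median 492) and 98.9 to 112 CPM in morula (median 108). Its log2 fold change of 1.88 ± 0.05 (adjusted p = 9.1e-16, edgeR) was the only one of the 9 above the median of all genes. The gene for the alternative GTP-forming subunit, Suclg2, went the other way, from 61.3 to 71.5 CPM in morula to 7.02 to 8.94 CPM in round spermatids (log2 fold change −3.37 ± 0.08, adjusted p = 2.11e-16, edgeR).

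Fh1 (chr1:175600374-175625635, minus strand), which encodes fumarate hydratase, did not pass the test: 16.9 to 24.03 CPM in round spermatids against 14.9 to 22.2 CPM in morula, log2 fold change −0.18 ± 0.11 (adjusted p = 0.113, edgeR). Both malate dehydrogenase genes were called lower. Mdh2 (chr5:135778480-135790398, plus strand) was at 14.7 to 21.0 CPM in round spermatids (median 15.9) and 199.7 to 266 CPM in morula (median 217), a log2 fold change of −4.05 ± 0.09 (adjusted p = 7.87e-17, edgeR). Mdh1 (chr11:21556787-21572367, minus strand) was at 3.66 to 5.47 CPM in round spermatids (median 4.70) and 19.95 to 27.6 CPM in morula (median 23.01), with −2.64 ± 0.12 (adjusted p = 9.41e-13, edgeR). Mdh1 shares 52 bases of exon with the oppositely oriented gene Wdpcp, which averaged 72.3 CPM in round spermatids and 0.111 CPM in morula. The part of that overlap in the Mdh1 counts was not tested.

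Like Csl, the listed copies Mdh1b and Pdha2 were higher in round spermatids than in morula. Without morula counts, both passed the filter on low counts only through the round spermatid libraries. Mdh1b, a malate dehydrogenase-like gene, was at 107 to 116 CPM in round spermatids and at 0 in all 6 morula libraries, which makes it at least 2630-fold higher against a limit of 3 counts over the 6 morula libraries together. Pdha2, the autosomal testis form of the pyruvate dehydrogenase E1 subunit, was at 159.9 to 167 CPM and likewise at 0 in morula, at least 3891-fold higher. Its X-linked counterpart Pdha1 fell from 192.9 to 245 CPM in morula to 0.392 to 0.890 CPM in round spermatids (log2 fold change −8.99 ± 0.12, adjusted p = 4.29e-19, edgeR).

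**Figure D2:**
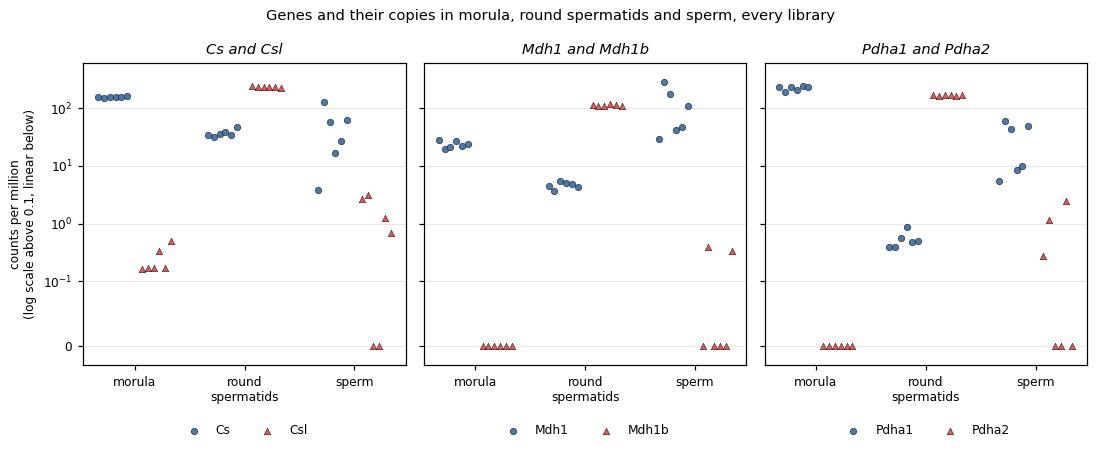
CPM of Cs and Csl, Mdh1 and Mdh1b, and Pdha1 and Pdha2 in each of the 6 morula, 6 round spermatid and 6 sperm libraries (log scale above 0.1, linear below). In round spermatids Csl, Mdh1b and Pdha2 (triangles) each lay above the related gene of the pair (circles), and in all morula and sperm libraries below it.

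Of the 10 other cycle enzymes, 3 were called higher in round spermatids, 6 lower and 1 not. Their median log2 fold change was −0.35. Suclg1, the shared subunit of succinyl-CoA ligase, had the largest rise (1.83 ± 0.08), and Idh3g, an X-linked regulatory subunit of the NAD-dependent isocitrate dehydrogenase, the largest fall (−5.54 ± 0.08). Of 12 tested genes of pyruvate entry, 7 were called higher and 3 lower. Of 16 tested cytosolic and feeding enzymes and carriers, 6 were called higher and 9 lower.

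Cauda sperm differed from round spermatids most in Mdh1, Idh2 and Sucla2. Relative to the same round spermatid libraries, 5 members were called higher and 2 lower (edgeR adjusted p under 0.05), against 26.2% and 48.1% of all genes tested. The median log2 fold change was 1.05 over the members and −0.91 over all genes. With scaling by library totals the all-gene median was −2.55, the calls over all genes turned from 4890 higher and 8972 lower to 1900 and 12347, and the members' calls to 2 higher (Idh2 and Mdh1) and 3 lower (Ogdh, Dlst and Sucla2), and Idh3a, Ogdh and Fh1 turned direction. Sperm libraries were sequenced from a single end and round spermatid libraries from both. For round spermatids the study's methods also name total (Ribo-minus) libraries. The mtDNA shares given above differed between the 2 tables. The epididymal and leukocyte markers given above were at most 4.67 and 9.30 CPM in round spermatids. The part of these differences in the values was not tested.

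Mdh1 had the largest change. It was at 28.8, 41.7 and 46.5 CPM in HFD sperm and 107, 175 and 284 CPM in LFD sperm, all above the 5.47 CPM of the highest round spermatid library. The log2 fold change was 6.03 ± 0.27 (adjusted p = 3.87e-10, edgeR). Idh2, at 0.738, 1.34 and 3.26 CPM in HFD sperm and 5.24, 7.21 and 11.3 CPM in LFD sperm, had 4.24 ± 0.32 (adjusted p = 4.06e-08, edgeR), though on 3 to 29 counts a library. It passed the filter in only 6 of the 12 fits that leave out a library, with 3.96 to 4.29.

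Cs was at 3.81, 16.7 and 26.6 CPM in HFD sperm and 56.4, 61.4 and 127 CPM in LFD sperm, so that the HFD libraries lay below the round spermatid range and the LFD libraries above it. On scaled values Cs (1.75 ± 0.31, adjusted p = 0.000141, edgeR) and Mdh2 (2.40 ± 0.40, adjusted p = 9.08e-05) were called higher in sperm, with overlapping groups. Scaled by library totals they had 0.39 and 1.18 and were not called. Idh3a was at 0.272, 6.35 and 7.63 CPM in HFD sperm and 6.56, 13.4 and 16.8 CPM in LFD sperm, across the round spermatid range. It had 1.05 ± 0.39 (adjusted p = 0.0226, edgeR) and lost the call without any of 4 sperm libraries, with edgeR adjusted p-values from 0.0608 to 0.0738. These were the HFD libraries of 2994295 and 4062321 counts and the LFD libraries of 2560219 and 2913166 counts.

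Sucla2 fell most, from 440 to 512 CPM in round spermatids to 6.52, 6.65 and 22.04 CPM in HFD sperm and 9.83, 12.4 and 17.2 CPM in LFD sperm. Its log2 fold change was −3.30 ± 0.43 (adjusted p = 7.28e-06, edgeR), and no sperm library came near the round spermatid range. Dlst fell by 0.91 ± 0.23 on the log2 scale, which is the median of all genes (−0.91), so that relative to the other genes it did not stand apart. Ogdh (0.07 ± 0.21) and Fh1 (0.12 ± 0.52) were not called, and Ogdh reversed to a call of −0.72 with the HFD sperm libraries alone.

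The related genes Csl, Mdh1b and Pdha2 fell from round spermatids to sperm. Csl was at 0 in 2 of 6 sperm libraries and at most 3.12 CPM in the others, Mdh1b was at 0 in 4 of 6 and Pdha2 in 3 of 6. Of the 10 other cycle enzymes, 4 were called higher and 3 lower in sperm, with Idh3g rising most (4.42 ± 0.41) and Suclg1 falling most (−2.55 ± 0.41). Of 16 tested cytosolic and feeding enzymes and carriers, 12 were called higher and 2 lower.

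A ratio of 2 genes within a library does not depend on the scaling between libraries. The ratio of Mdh1 to Mdh2 counts, with 0.5 added to each, was 0.0854 to 0.129 in morula (median 0.103), 0.209 to 0.322 in round spermatids (median 0.300) and 1.66 to 11.2 in sperm (median 4.25). The 3 groups did not overlap. On the log2 scale round spermatids exceeded morula by 1.40 and sperm exceeded round spermatids by 3.94, each with an exact two-sided permutation p of 0.00216, the smallest that 924 arrangements allow, and 0.00505 after adjustment over the 14 ratio tests.

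The ratio of Idh2 to Idh3a counts was 1.13 to 1.66 in morula (median 1.34) and 0.0452 to 0.0725 in round spermatids (median 0.0615). This is a log2 difference of −4.52 (exact permutation p = 0.00216, adjusted 0.00505). In sperm the ratio ran from 0.111 to 8.33, with both ends in HFD libraries, where it was 0.111, 0.231 and 8.33 on 1 to 31 counts of either gene. Sperm still exceeded round spermatids by 3.41 on the log2 scale (exact permutation p = 0.00216, adjusted 0.00505).

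**Figure D3:**
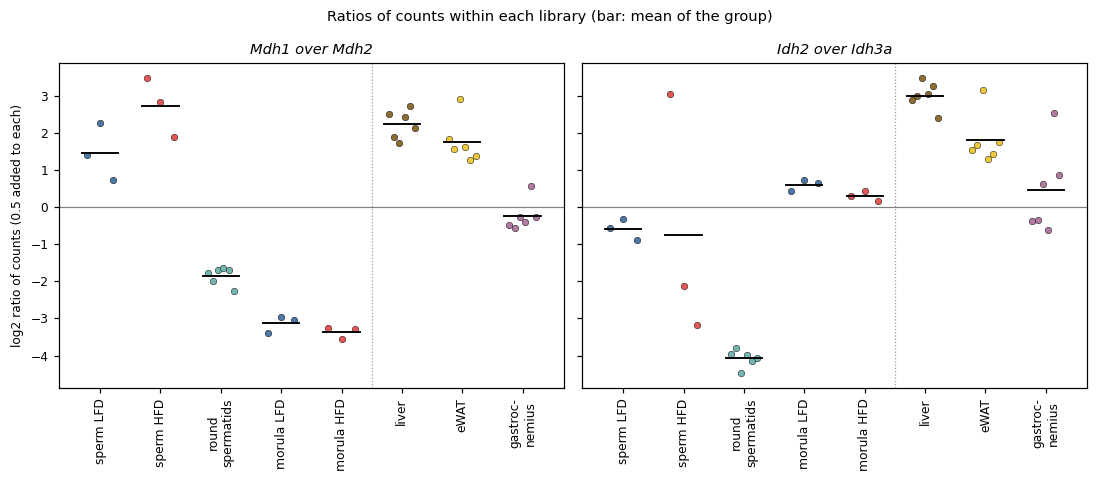
Log2 ratios of Mdh1 to Mdh2 counts and of Idh2 to Idh3a counts in every library, with 0.5 added to each count; points are libraries and bars are group means. Morula and round spermatids lay below 0 for Mdh1 over Mdh2 and sperm, liver and eWAT above it, while Idh2 over Idh3a was lowest in round spermatids among the whole-transcript tables (−4.47 to −3.79) and its group mean was highest in liver among the 3′-end tables (2.41 to 3.47).

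Among the offspring tissues, gastrocnemius held the highest levels of most members. Against liver, 6 of 9 members were called higher and 0 lower (edgeR adjusted p under 0.05), where 33.6% of all genes tested were called higher and 37.7% lower. The median of the members was 1.58, that of all genes −0.07. Against eWAT, all 9 were called higher, where 31.4% of all genes tested were called higher and 38.5% lower, with medians of 2.17 and −0.15. The 2 comparisons share the gastrocnemius libraries.

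Idh3a had the largest difference between muscle and liver. It was at 172 to 381 CPM in gastrocnemius (median 226), 14.9 to 25.1 CPM in liver (median 19.7) and 47.8 to 105 CPM in eWAT (median 73.1), with no overlap of gastrocnemius with either. The log2 fold change over liver was 3.70 ± 0.19 (adjusted p = 1.1e-13, edgeR) and over eWAT 2.76 ± 0.22 (adjusted p = 4.93e-09). Mdh2 was at 415 to 793 CPM in gastrocnemius (median 534), 77.6 to 153 CPM in liver (median 103) and 103 to 144 CPM in eWAT (median 124). Its log2 fold changes were 2.45 ± 0.20 over liver (adjusted p = 3.33e-10) and 3.18 ± 0.20 over eWAT (adjusted p = 1.86e-10, edgeR).

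Cs was at 110.2 to 248 CPM in gastrocnemius (median 160.2), 20.6 to 44.7 CPM in liver (median 37.4) and 47.5 to 85.4 CPM in eWAT (median 76.5). Gastrocnemius exceeded liver by 2.26 ± 0.21 and eWAT by 2.17 ± 0.20 on the log2 scale, again without overlap. Sucla2 was at 227 to 394 CPM in gastrocnemius, 91.3 to 122 CPM in liver and 75.1 to 96.3 CPM in eWAT, with differences of 1.58 ± 0.16 and 2.89 ± 0.16. Ogdh exceeded liver by 0.96 ± 0.17 and eWAT by 1.45 ± 0.17. All of these had adjusted p-values of 3.73e-05 or less (edgeR).

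Mdh1, Dlst and Fh1 were not called between gastrocnemius and liver. Mdh1 was at 311 to 903 CPM in gastrocnemius (median 403) and 372 to 605 CPM in liver (median 501), a log2 fold change of 0.08 with a 95% interval from −0.39 to 0.55. Dlst had −0.20 (−0.52 to 0.12) and Fh1 0.57 (−0.31 to 1.45). Against eWAT the same genes were called higher in gastrocnemius, by 1.21 ± 0.27 for Mdh1, 1.20 ± 0.15 for Dlst and 2.84 ± 0.24 for Fh1. With scaling by library totals, which moved the median of all genes to −1.20 and the calls over all genes from 3040 higher and 3721 lower to 1215 and 6545, the members kept their direction but Idh2, Dlst and Mdh1 lost their calls over eWAT (0.82, 0.15 and 0.15).

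**Figure D4:**
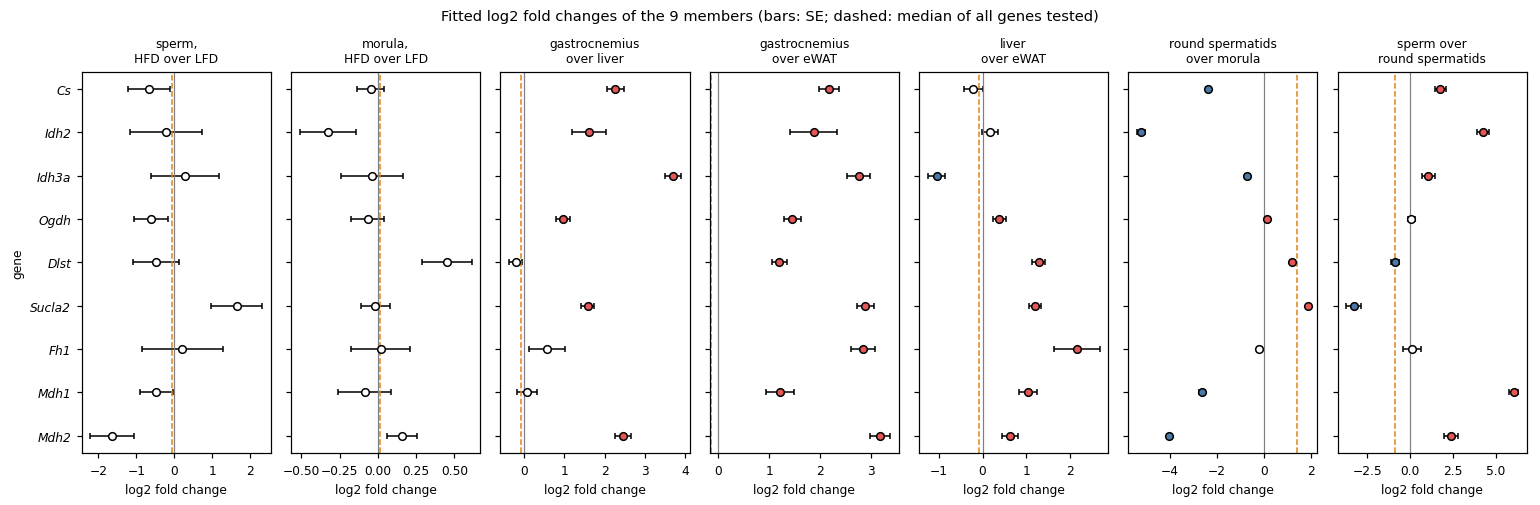
Fitted log2 fold changes of the 9 members in 7 comparisons, each panel with its own scale; bars are standard errors, red and blue points are calls of higher and lower expression at an adjusted p under 0.05, open points were not called, and the dashed line is the median of all genes tested. All 9 points are red for gastrocnemius over eWAT and the points of both diet panels are open.

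Liver and eWAT differed less. Liver was called higher in 6 members and lower in 1, against 28.8% and 33.9% of all genes tested. Fh1 led with 2.15 ± 0.53 (adjusted p = 0.00189), followed by Dlst (1.28 ± 0.15), Sucla2 (1.19 ± 0.14) and Mdh1 (1.04 ± 0.20), and Idh3a was the member called lower (−1.05 ± 0.20, adjusted p = 0.000246, edgeR). For Fh1 the groups overlapped on unscaled CPM, as its lowest liver library was at 7.85 CPM and eWAT ran from 23.2 to 49.8 CPM. Ogdh (0.38 ± 0.15, adjusted p = 0.0319) lost its call without the liver library of 2279651 counts (adjusted p = 0.0537) and without that of 2036237 counts (0.0625). Idh2 (0.17 ± 0.18) gained one without the eWAT library of 3512177 counts (0.37, adjusted p = 0.0446, edgeR). Scaling by library totals, which put the median of all genes at −0.96, turned the calls over all genes from 2962 higher and 3487 lower to 1408 and 6628. Under that scaling 3 members were called higher (Dlst, Sucla2 and Fh1) and 4 lower (Cs, Idh2, Idh3a and Ogdh), and Idh2, Ogdh and Mdh2 turned direction.

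Of 8 tested other cycle enzymes, 4 were called higher and 1 lower in liver than in eWAT, with Suclg1 (2.36 ± 0.15) and Idh3g (−0.72 ± 0.15) at the ends. Of 10 tested genes of pyruvate entry, 4 were called higher and 4 lower, and of 15 tested cytosolic and feeding enzymes and carriers, 10 and 2.

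The within-library ratios put liver and muscle apart. The ratio of Mdh1 to Mdh2 counts was 3.30 to 6.67 in liver (median 4.92), 2.42 to 7.55 in eWAT (median 3.02) and 0.673 to 1.48 in gastrocnemius (median 0.790). Gastrocnemius lay 2.48 below liver and 2.00 below eWAT on the log2 scale, without overlap (exact permutation p = 0.00216 for each, adjusted 0.00505). Liver and eWAT did not pass the test (difference 0.48, exact permutation p = 0.136, adjusted 0.191), but they did without the eWAT library of 3512177 counts (0.71, adjusted 0.0168, exact permutation).

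The ratio of Idh2 to Idh3a counts was 5.32 to 11.1 in liver (median 8.11), 2.48 to 8.89 in eWAT (median 3.05) and 0.650 to 5.80 in gastrocnemius (median 1.17). Liver exceeded eWAT by 1.20 (exact permutation p = 0.0108, adjusted 0.0189) and gastrocnemius by 2.56 (p = 0.00433, adjusted 0.00866, exact permutation). Between gastrocnemius and eWAT the difference of −1.36 did not pass (exact permutation p = 0.0455, adjusted 0.0707). Without the gastrocnemius library of 369772 counts it was −1.77 (adjusted 0.00379, exact permutation).

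Genes around the cycle gave more detail. Of 9 tested other cycle enzymes, 7 were called higher in gastrocnemius than in liver, among them Sdhb, the iron-sulphur subunit of succinate dehydrogenase (2.28 ± 0.23). The 2 succinyl-CoA ligase genes Suclg1 (−0.27 ± 0.15) and Suclg2 (−0.39 ± 0.44) were not called. All 8 tested other cycle enzymes were called higher in gastrocnemius than in eWAT. Pdk4, a kinase that switches off pyruvate dehydrogenase, had the largest difference of the pyruvate entry list over both liver (7.56 ± 0.25) and eWAT (4.62 ± 0.35). Of 14 tested cytosolic and feeding enzymes and carriers, 4 were called higher and 10 lower in gastrocnemius than in liver. Pck1, the cytosolic enzyme of gluconeogenesis from oxaloacetate, had −7.39 ± 0.65, and the aspartate and glutamate carriers split, with Slc25a13 at −11.85 ± 0.35 and Slc25a12 at 4.09 ± 0.17.

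Within a tissue, a few members spread far more than the rest. In gastrocnemius, Idh2 ran from 133 to 1309 CPM. The values in order of library total were 1309, 701, 133, 154, 181 and 342 CPM, and the libraries of 369772 and 935991 counts were the highest. Myh2, the myosin heavy chain of fast oxidative fibres, was at 3283 and 1518 CPM in those 2 libraries and 238 to 776 CPM in the other four. Myh7, the slow-fibre myosin, was at 554 and 71.6 CPM there and 9.47 to 37.8 CPM in the others. Myh4, the myosin of fast glycolytic fibres, was lowest there, at 13982 and 24712 CPM against 31912 to 37556 CPM. The part of fibre make-up in the spread of Idh2 was not tested. The log2 fold change of Idh2 over liver was 1.62 ± 0.42 with all libraries and 0.99 without the library of 369772 counts, and it remained called.

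In liver, Fh1 fell into 2 levels. It was at 7.85 and 11.8 CPM in the libraries of 2038532 and 2036237 counts, on 16 and 24 counts, and at 79.1 to 146 CPM in the other four. Both low values lay below the 23.2 to 49.8 CPM of eWAT, although Fh1 was called higher in liver than in eWAT. Mdh1 was at 372 and 507 CPM in the same 2 libraries and 471 to 605 CPM in the others, which overlap. A smaller step stood in Dlst, at 119 and 133 CPM against at least 187 CPM in the other four, and Sucla2 was at 99.6 and 91.3 CPM against 102 to 122 CPM. The 4 hepatocyte markers summed to 39364 and 41592 CPM in these 2 libraries and to 51511 to 59898 CPM in the other four; their part in these values was not tested. The oppositely oriented neighbour Kmo, whose gene span overlaps that of Fh1 by 5255 bases but by 0 bases of exon, was at 167 to 221 CPM in all 6.

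**Figure D5:**
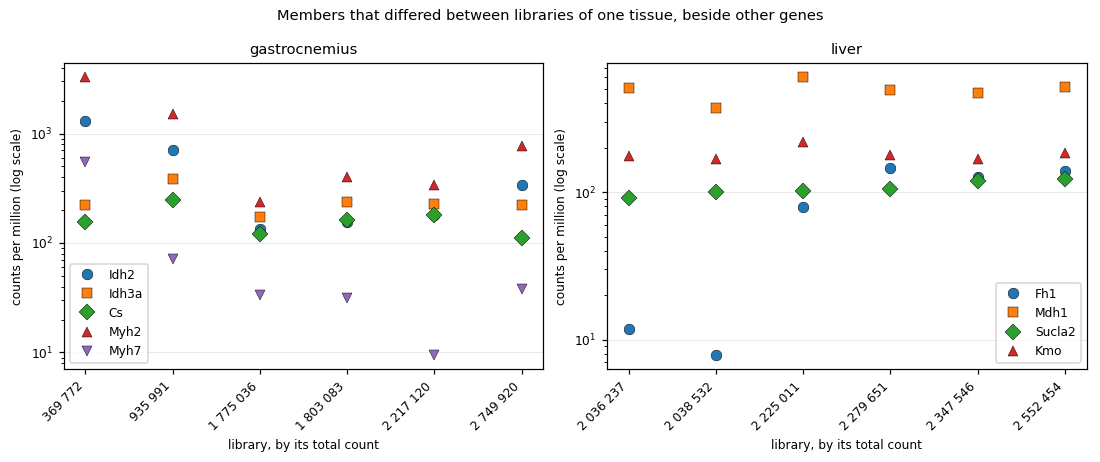
CPM (log scale) of members and of other genes in the 6 gastrocnemius libraries (left) and the 6 liver libraries (right), ordered by total count. Idh2 and Myh2 were highest in the 2 shallowest gastrocnemius libraries, and Fh1 was lowest in the 2 shallowest liver libraries while Kmo stayed between 167 and 221 CPM.

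In the eWAT library of 3512177 counts, Mdh1 (781 CPM) and Idh2 (426 CPM) were the highest of the tissue and Cs (47.5 CPM) and Idh3a (47.8 CPM) the lowest. The other five lay at 342 to 440 CPM for Mdh1, 183 to 259 CPM for Idh2, 75.5 to 85.4 CPM for Cs and 62.8 to 105 CPM for Idh3a. The same library held 42 counts of Mdh1b and 118 of Ogdhl, an oxoglutarate dehydrogenase-like gene, where the others held 0 and 0 to 4. Without it, all 9 members were still called higher in gastrocnemius than in eWAT.

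The diet comparison in sperm gave no call. None of 8643 genes (0.0%) passed an adjusted p of 0.05 in the edgeR test, with 1122 genes at an unadjusted p under 0.05. DESeq2 called 295 of the 8643 genes, 272 higher and 23 lower, and limma-voom 0. Of the 9 members 0 passed by edgeR, DESeq2 or limma-voom. In simulated counts for this comparison, 0% of log2 changes of 1 and 6% of those of 2 were recovered. The absence of a call therefore does not show that a gene was unchanged. The median log2 fold change of HFD over LFD was −0.47 for the members and −0.07 for all genes. Mdh2 and Sucla2 were the 2 members at an unadjusted p under 0.05.

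Unscaled levels of most members were lower on HFD: the 9 summed to 62.0, 115 and 138 CPM on HFD and to 347, 373 and 764 CPM on LFD. As CPM of nuclear counts, which leaves out mtDNA-encoded genes, the sums were 295 to 732 on HFD and 948 to 1352 on LFD. Ogdh was at 12.2, 12.4 and 19.2 CPM on HFD and 57.3, 58.0 and 117 CPM on LFD, a scaled log2 fold change of −0.62 ± 0.46. Mdh2 was at 2.45, 5.68 and 12.6 CPM on HFD and 36.1, 64.5 and 108 CPM on LFD (−1.63 ± 0.58, adjusted p = 0.272, edgeR). Sucla2 was the exception at 6.52, 6.65 and 22.04 CPM on HFD and 9.83, 12.4 and 17.2 CPM on LFD, which TMM scaling put at 1.64 ± 0.67 (adjusted p = 0.314, edgeR) and library totals at −0.17; without the HFD library of 2994295 counts the TMM value was 0.74.

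On scaled values 3 of the 9 members (Ogdh, Sucla2 and Mdh2) did not overlap between the diets, against 20.4% of all genes tested. Scaling by library totals called 5 members lower on HFD, Cs, Ogdh, Dlst, Mdh1 and Mdh2, in a fit whose all-gene median was −1.82 and which called 1 gene higher and 3265 lower. The Crisp1, Adam7, Cd52 and mtDNA values given above differed between the same libraries; their part in these differences was not tested. The 95% intervals of the members were wide, the widest from −1.87 to 2.30 for Fh1.

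In morula the same comparison was far tighter. None of 13447 genes (0.0%) passed in the edgeR test, with 858 at an unadjusted p under 0.05, while DESeq2 called 18 and limma-voom 0. Of the 9 members 0 passed in any of these fits, and Dlst alone had an unadjusted p under 0.05. In simulated counts for the morula comparison, 49% of log2 changes of 1 and 72% of those of 2 were recovered. Here too the absence of a call does not show that a gene was unchanged. Cs was at 149.5, 154 and 156 CPM in morulae of HFD males and 153, 155 and 161 CPM in those of LFD males, a log2 fold change of −0.05 with a 95% interval from −0.22 to 0.12. Sucla2 had −0.02 (−0.20 to 0.17) and Mdh2 0.16 (−0.04 to 0.35). Dlst was at 28.7, 43.0 and 43.5 CPM against 27.03, 27.2 and 28.4 CPM, the largest difference of the set at 0.45 ± 0.16 (adjusted p = 0.696, edgeR). The 3 HFD libraries of Dlst lay above the 3 LFD libraries, but the lowest of them was close to the LFD range. On scaled values 2 of 9 members (Cs and Dlst) had groups without overlap, against 12.1% of all genes tested.

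The surrounding lists gave no diet call in either table by the edgeR test. In sperm these were 9 tested other cycle enzymes, 10 genes of pyruvate entry and 14 cytosolic and feeding enzymes and carriers, and in morula 10, 9 and 15; 1 of the sperm genes and 0 of the morula genes had an unadjusted p under 0.05. The 2 ratios did not pass either. Mdh1 to Mdh2 differed by 1.27 in sperm and −0.24 in morula on the log2 scale, and Idh2 to Idh3a by −0.16 and −0.30, with exact permutation p-values of 0.2 to 1, where 3 against 3 libraries cannot go under 0.1.

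Across the 6 tables, the 5 genes whose profile lay closest to the median profile of the members, out of 9875 with a mean of at least 10 CPM, were Ndufb5, Ndufs7, Cfl2, Idh3b and Tarsl2. These profiles span both library kits, so differences between the kits enter them. The root mean square distances of the 5 genes on the centred log2 CPM were 0.220 to 0.372. Ndufb5 and Ndufs7 encode subunits of respiratory complex I, Idh3b a further subunit of the NAD-dependent isocitrate dehydrogenase and Cfl2 the muscle cofilin. Of the members themselves, Fh1 was nearest (0.458) and Mdh1 (2.09) and Idh2 (2.36) farthest.

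The promoters of 8 members, taken from RefSeq sequences of GRCm38.p6 as 250 bases before to 50 after a start, were searched on both strands for 2 motifs of factors known to act on mitochondrial genes. The motif of the oestrogen-related receptors, TNAAGGTCA, was in 0 of 8 members and in 1.28% of 32851 promoters. The core motif of nuclear respiratory factor 1, CGCATGCG, which reads the same on either strand, was in 1.87% of promoters and in 1 member, Ogdh. The table holds 6 promoters for Ogdh, and 2 of them, at alternative starts inside the annotated gene, held it; the share counts promoters and the member count genes. It began 14 bases before the start that follows chr11:6292508-6292557 (plus strand), and the 50 bases before that start are shown with the motif in capitals.
Ogdh: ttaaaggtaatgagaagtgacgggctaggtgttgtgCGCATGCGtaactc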

How the data were processed

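RNA was sequenced in 36 libraries, 6 per table. The authors trimmed the reads (BBDuk), aligned these to GRCm38 from Ensembl (STAR) and deposited raw counts of reads per gene (featureCounts); versions and the strand setting are not given in the sources used here. Sperm and morula columns carry the diet in their names, but their numbers are not those of the sample titles, and a description field of 3 morula samples names the other diet than title and treatment, which were followed. The members and lists were chosen with earlier results of these data known. Beyond the members, up to 2 genes of largest and 2 of smallest fold change per list and comparison are named, and Suclg2, Pdha1, Wdpcp, Kmo, Ogdhl and the myosins were chosen after their values were seen.

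Each comparison had its own fit of the counts (R 4.3.3, edgeR 4.0.16: TMM factors, filterByExpr at its count of 10, quasi-likelihood test, two-sided), with Benjamini-Hochberg adjustment over all genes tested and a threshold of 0.05. The study itself used NOISeq, which has no adjusted p of this kind. DESeq2 1.42.0, limma-voom (limma 3.58.1), RLE factors, library totals, nuclear genes alone, no filter, a replicate block in sperm, each diet's sperm or LFD morula libraries alone and leaving out each library were alternatives; that with HFD sperm alone was added after the data were seen. Standard errors come from the fold change and its F value, and 95% intervals are 1.96 SE. Log2 ratios (0.5 added to each count) were compared by exact permutation over libraries, two-sided. Transcripts of GENCODE were compared with BLAST 2.17.0. The fits were tested on simulated counts. Apart from round spermatids, which the study's methods take from separate mice, the sources used here do not tie the libraries of a group to separate animals, so p-values measure the spread between these samples, which may be technical. Proteins were not analysed here.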

Additional observations from a re-analysis of the deposited data

Results flagged for a closer look

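In the eWAT library of 3512177 counts, 5 values lay far from those of the other five libraries: Cs at 47.5 CPM, Idh2 at 426 CPM, Mdh1 at 781 CPM, and the log2 ratios of Idh2 to Idh3a counts (3.15) and of Mdh1 to Mdh2 counts (2.92). This is the library with the Sox9, late germ cell marker, Mdh1b and Ogdhl values given above; their part in these values was not tested. In gastrocnemius, Idh3a reached 381 CPM in the library of 935991 counts, and the log2 ratio of Mdh1 to Mdh2 counts reached 0.56 in the library of 369772 counts. In liver, the summed level of the members was lowest, at 981 CPM, in the library of 2038532 counts. These are 8 values far from their group in 48 groups examined. Chance gives about 1 in 20 for independent groups, which these were not. The ratios and the sum reuse the counts of the members, and 5 of the 8 values come from the eWAT library of 3512177 counts.

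The difference of the diet effect between sperm and morula had an unadjusted p under 0.05 for 3 of 9 members, by an exact permutation of the diet labels within each table (400 arrangements, two-sided, on TMM-scaled log2 CPM). This permutation also takes the diet effect as absent in both tables, and the share of all genes with such a p was not computed. The effect of HFD in sperm minus that in morula was −1.87 for Mdh2 (exact permutation p = 0.015), 1.38 for Sucla2 (p = 0.03) and −0.92 for Dlst (p = 0.045). For the other six members p ran from 0.085 to 0.945. The diet effect itself was not called for any of them in either table.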

How the results depend on the processing

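Over all alternatives, the number of members called in either direction stayed within 1.5 times its main value in 117 refits. It left that range in 1, the diet comparison in sperm, where library totals called 5 members in place of 0. This count ignores direction, so the changed splits of higher and lower calls with library totals given above for liver over eWAT and sperm over round spermatids are not in it. The median of the members moved by at least the members' median SE in 15 refits and by less in 103. Levels, rescaled to nuclear counts or by TMM, moved by at least their SD in 39 cases and by less in 69. Of the refits of single members, 982 kept direction and call, 17 lost a call, 8 gained one and 49 turned direction. The turned directions with library totals were −1.36 for Idh3a, −0.17 for Sucla2 and −1.53 for Fh1 for diet in sperm, 0.0054 for Sucla2 for diet in morula, −0.00474 for Mdh1 in gastrocnemius over liver, −0.72 for Idh2, −0.49 for Ogdh and −0.24 for Mdh2 in liver over eWAT, 0.14 for Fh1 in round spermatids over morula, and −0.56 for Idh3a, −1.33 for Ogdh and −1.32 for Fh1 in sperm over round spermatids. With RLE factors they were 0.14 for Fh1 in round spermatids over morula, and −0.24 for Ogdh and −0.20 for Fh1 in sperm over round spermatids; the same 3 values were 0.070, −0.56 and −0.50 without a filter on low counts and 0.14, −0.19 and −0.23 with DESeq2. With limma-voom they were −0.15 for Idh3a and −0.11 for Fh1 for diet in sperm, −0.087 for Mdh1 in gastrocnemius over liver and −0.83 for Fh1 in sperm over round spermatids, where LFD sperm alone gave −0.18 for Fh1 and HFD sperm alone −0.72 for Ogdh. The cause was not tested. Calls over all genes for diet in sperm were 0, against 38 higher and 3 lower without a filter and 2 higher with the replicate block.

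The replicate block could be fitted only for the 2 column numbers that HFD and LFD sperm share; same-numbered libraries correlated at −0.136 and 0.103 in their deviations, so the numbers were not taken as pairs. With the replicate block 0 of 9 members were called, and Idh3a (−1.02) and Fh1 (−1.98) turned direction. No paired analysis was possible because the morula columns and the pooled tables carry no shared replicate numbers. Leaving out each library in turn gave, for diet in sperm, −0.15 to 0.81 for Idh3a, −1.25 to 0.24 for Idh2 and −2.09 to 1.27 for Fh1; for diet in morula, −0.20 to 0.046 for Idh3a, −0.10 to 0.20 for Fh1 and −0.21 to 0.00247 for Mdh1; for Mdh1 in gastrocnemius over liver, −0.16 to 0.21; and in sperm over round spermatids, −0.25 to 0.30 for Ogdh and −0.48 to 0.38 for Fh1. The log2 ratio of Mdh1 to Mdh2 between liver and eWAT ran from 0.38 to 0.71, and that of Idh2 to Idh3a from −2.06 to 1.06 for diet in sperm and from −1.77 to −1.09 between gastrocnemius and eWAT. Counts limit Idh2, Idh3a and Fh1 in sperm (1 to 72 counts a library), and the library of 369772 counts limits the gastrocnemius values.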
